A study of Mus musculus with 4 samples.

Results

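The 10 genes described here, Hamp, Hjv, Hfe, Tfr2, Tmprss6, Tfrc, Slc11a2, Slc40a1, Fth1 and Ftl1, encode the best known sensors, signals, carriers and stores of iron that stand downstream of BMP6 or beside it. They were chosen by name, not by a cut on their values, from the 55267 entries of the expression table, and each name matched 1 entry. Earlier results of these data were known when they were chosen. RNA-seq was performed on muscle stem cells (MuSCs), the Pax7-expressing cells from which skeletal muscle regenerates, after isolation from adult mice and culture. The mice were females aged 9 weeks of the genotype C57BL/6N(Tg(Pax7-EGFP)Tajb), in which Pax7 regulatory sequence drives a green fluorescent protein, and the cells were sorted for that fluorescence and cultured further at 3% oxygen. All cells, controls included, then spent 6 h without serum in 200 ng/mL BMPR-1A-Fc, a soluble receptor fragment that captures BMPs. Treated cells received 100 ng/mL BMP6 for 1 h, and control cells received the vehicle, 4 mM HCl with 0.1% BSA, for the same time. There were 2 libraries in each group, labelled biological replicates 1 and 2. This number is also entered as a batch, and each batch holds 1 library of each group. The labels do not say whether a replicate is 1 animal or a pool.

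In the liver, BMP6 made by endothelial cells binds BMP receptors on hepatocytes together with the co-receptor hemojuvelin, the product of Hjv, and the SMAD proteins that are then phosphorylated switch on Hamp, the gene of the iron hormone hepcidin. Hepcidin acts on ferroportin, the product of Slc40a1 and the cell's iron exporter, and so closes the exit for iron. Within each cell a second, post-transcriptional control operates: iron regulatory proteins bind iron-responsive elements (IREs), short hairpins in the untranslated regions of mRNAs, and thereby block translation from a hairpin in the 5′ UTR or protect the mRNA from decay through hairpins in the 3′ UTR. Skeletal muscle is known for expressing Hjv, although hepcidin itself is mainly a product of the liver.

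The comparison asked whether these genes responded within 1 h of BMP6. Id1, a direct target of BMP signalling that encodes an inhibitor of DNA binding, served as the check that the stimulus acted and rose from 90.5 and 129 transcripts per 1000000 (TPM, a measure per transcript length and library) in control replicates 1 and 2 to 584 and 513 TPM in BMP6 replicates 1 and 2. This was a log2 fold change of 2.33 (SE 0.17) with an adjusted p of 0.0164 in limma. By contrast, 7 of the 10 iron regulation genes had a mean of at least 1 TPM and were tested, and 0 of the 7 were called. A call required that expression, taken on the log2(TPM + 1) scale, differ by a factor of 2 or more (0.5 or less for a lower gene) with a Benjamini-Hochberg adjusted p under 0.1. Entries with names of predicted genes, microRNAs, antisense RNAs or pseudogenes were left out of calls. Across all other tested entries, 0.225% were called higher and 0.0% lower, so the count of 0 of 7 is near that background. None of the 7 reached an unadjusted p under 0.05, which 3.12% of those entries did in limma. None did in voom on rebuilt read numbers, where 3.08% of those entries did. With the replicate number as a block none did either, against 12.7% of those entries in limma and 13.8% in voom. The other 3 genes, Hamp, Tfr2 and Tmprss6, lay under 1 TPM and are given as levels.

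The libraries were deep and alike. Read numbers rebuilt from coverage came to 108 to 112 per library in units of 1000000, 13002 to 13203 entries reached 1 TPM, and correlations between libraries were 0.988 to 0.995 across genes. The cell type label was checked against markers. Pax7, which marks MuSCs, was at 8.29 to 11.7 TPM and Myod1, of activated MuSCs and myoblasts, at 536 to 631 TPM, while Myog, which marks myoblasts that enter differentiation, was at 4400 to 5472 TPM. Of 5 hepatocyte markers, Ttr was at 0 throughout and the summed level was at most 0.240 TPM in the controls and 0.323 TPM after BMP6. Of 5 erythroid markers, Hbb-bs and Slc4a1 were among those at 0 and the sum was 1.09 to 1.36 TPM in controls and 1.04 to 1.30 TPM after BMP6. For 5 macrophage markers the sums were 1.27 to 1.37 TPM and 1.08 to 1.85 TPM, mostly from Cd68, and the sum of 4 endothelial markers stayed at or below 0.298 TPM, with Kdr at 0. The 4 fibroblast genes summed to 124 to 174 TPM in controls and 105 to 166 TPM after BMP6, from Col1a1 and Col3a1, whereas Pdgfra was at 0.0530 to 0.164 TPM.

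The hairpins that tie these mRNAs to cellular iron were located in the genome sequence of the build the authors used (GRCm39), and they are shown because 5 of the 10 genes carry one and 5 do not. A match required an unpaired C, an upper stem of 5 base pairs, the loop CAGTGN with a last base other than G, and at least 3 of 5 pairs in the lower stem, with G-T pairs allowed and at most 1 extra unpaired base on the 3′ side, on the transcribed strand. By this rule 0.477% of the 84487 transcripts scanned, and 238 of 55262 entries, held a match. Capitals mark the loop. The 5′ UTRs of Fth1, Ftl1 and Slc40a1 held 1 match each, 1 of the 2 Slc11a2 transcripts held 1 in its 3′ UTR, and Tfrc held 4 in its 3′ UTR.
Fth1, chr19:9960097-9960123, plus strand: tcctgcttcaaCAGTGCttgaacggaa
Ftl1, chr7:45109204-45109230, minus strand: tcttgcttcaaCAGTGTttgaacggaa
Slc40a1, chr1:45964626-45964652, minus strand: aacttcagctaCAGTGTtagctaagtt
Slc11a2, chr15:100293034-100293061, minus strand: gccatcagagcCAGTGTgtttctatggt
Tfrc, chr16:32450038-32450064, plus strand: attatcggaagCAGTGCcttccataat
Tfrc, chr16:32450417-32450443, plus strand: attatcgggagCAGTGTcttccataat
Tfrc, chr16:32450482-32450508, plus strand: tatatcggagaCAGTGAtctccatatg
Tfrc, chr16:32450529-32450555, plus strand: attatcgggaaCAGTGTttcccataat
The upper stems of the 2 ferritin hairpins had the same letters, and the Slc11a2 hairpin was the only one of the 8 that needed the extra unpaired base. Hamp, Hjv, Hfe, Tfr2 and Tmprss6 had no match, which says only that these letters in this arrangement are not in their deposited transcripts.

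The genes fell into a wide order of levels, compared here per transcript length. Ftl1 had the highest mean, 7551 TPM over the 4 libraries, followed by Fth1 with 2659 TPM, Hjv with 63.7 TPM, Slc40a1 with 62.8 TPM, Slc11a2 with 19.5 TPM, Tfrc with 7.57 TPM and Hfe with 3.98 TPM. Tfr2 at 0.399 TPM, Tmprss6 at 0.282 TPM and Hamp at 0.0192 TPM closed the list. The ranges over the 4 libraries overlapped only between the neighbours Hjv and Slc40a1 and the neighbours Tfr2 and Tmprss6. Between all other neighbours the lowest library of one gene lay above the highest of the next. In bulk samples such as these, the share of cells that express a gene and the RNA per cell cannot be told apart.

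**Figure D1:**
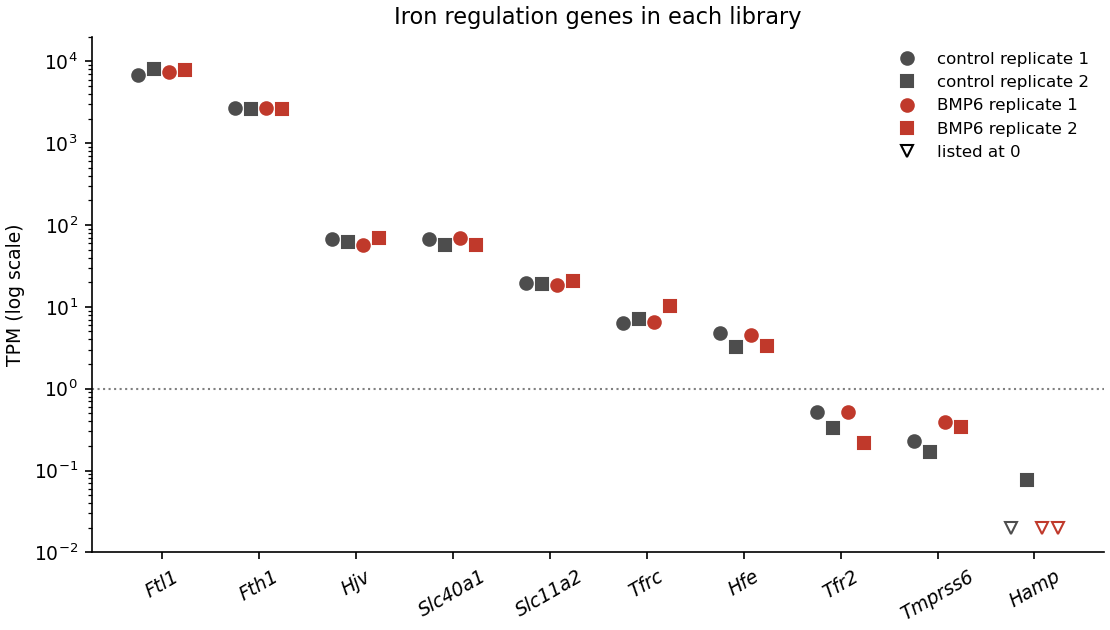
TPM of each iron regulation gene (x axis, ordered by mean level) in each of the 4 libraries, on a log scale (y axis), with control libraries in grey and BMP6 libraries in red, circles for replicate 1 and squares for replicate 2. Open triangles mark libraries in which Hamp is listed at 0, and the dotted line is 1 TPM, below which Tfr2, Tmprss6 and Hamp were not tested.

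Hamp (chr7:30641793-30643457, minus strand), the hepcidin gene and the classical readout of BMP6 in iron regulation, was listed at 0 in control replicate 1 and in both BMP6 libraries and at 0.0769 TPM in control replicate 2. That value corresponds to 1.9 rebuilt reads. At the depth of these libraries, 3 rebuilt reads would have given 0.115 to 0.122 TPM, so that a level above about that value was not detected in any library. Hamp expression was therefore not detectable before or after BMP6. The whole gene lies within the span of Gm44662 on the opposite strand. Gm44662 was listed at 0 and 0.116 TPM in control replicates 1 and 2 and at 0.258 and 0.246 TPM in BMP6 replicates 1 and 2. Since the libraries were unstranded, strand cannot tell apart reads from bases that both entries cover. Whether their exons share bases was not tested. Hamp2, the second mouse hepcidin gene, was listed at 0 in all 4 libraries.

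The Hamp promoter is shown because it is the part of the pathway that SMAD proteins read. The RefSeq promoter window, 250 bases before to 50 after the start on GRCm38.p6, held 1 copy of GGCGCC, a GC-rich motif of BMP-responsive elements, at position -109 from the start, in the stretch chr7:30944121-30944150 on the minus strand. Capitals mark the motif.
Hamp promoter: tcccgcctgtttGGCGCCactattttcttg
GGCGCC, which reads the same on both strands, was present in the promoters of 13.4% of 27025 genes. Among the promoters given for Hfe, Tfr2, Tfrc, Fth1 and Ftl1, it was present in 1 of the 2 windows of Tfrc and in none of the others. The short SMAD box CAGAC, searched on both strands, was present in the windows of Hamp, Hfe and Tfr2 and in 53.2% of genes. Promoters of Hjv, Slc40a1, Slc11a2 and Tmprss6 were not analysed here.

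The genes of the hepcidin-controlling complex were present at very unequal levels. Hjv (chr3:96432488-96436526), which encodes the BMP co-receptor hemojuvelin, was at 67.2 and 62.6 TPM in control replicates 1 and 2 and at 56.2 and 68.6 TPM in BMP6 replicates 1 and 2. The lowest and the highest library were both BMP6 libraries. Its log2 fold change was -0.06 (SE 0.12, 95% interval -0.36 to 0.24, adjusted p = 1.00 in limma), or a fold change between 0.778 and 1.18. ENSMUST00000049208 was the only transcript quantified for Hjv, so all of its TPM was assigned to it.

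Hfe (chr13:23886017-23894837), an MHC class I-like protein that binds transferrin receptors and is altered in hereditary hemochromatosis, was at 4.81 and 3.24 TPM in controls and at 4.49 and 3.37 TPM after BMP6. Both replicate 1 libraries were higher than both replicate 2 libraries, irrespective of treatment. The log2 fold change was -0.02 (SE 0.21, 95% interval -0.54 to 0.50, adjusted p = 1.00 in limma). With the replicate number as a block the interval was -0.28 to 0.24. At least 98.1% of its TPM in every library came from ENSMUST00000091706, whose 3′ part holds a repeat that aligns to other entries. None of these reached 1 TPM where the matching transcript was quantified. Matching transcripts of further genes, among them C2cd5 and Ddx50, were not quantified, so reads of the repeat from them were not assessed.

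Tfr2 and Tmprss6, both best known from hepatocytes, were barely present. Tfr2 (chr5:137568102-137585743), which encodes a transferrin receptor that senses iron-loaded transferrin, was at 0.524 and 0.329 TPM in controls and at 0.524 and 0.220 TPM after BMP6, and the groups overlapped. Tmprss6 (chr15:78323867-78352834) encodes matriptase-2, a membrane protease that cleaves hemojuvelin and thereby restrains hepcidin. It was at 0.226 and 0.167 TPM in controls and at 0.391 and 0.343 TPM after BMP6, from 46.1 and 32.9 and from 78.2 and 65.7 rebuilt reads. Both BMP6 libraries lay above both controls, as did those of 13.1% of the entries with a mean under 1 TPM that were above 0 in any library. When such entries were included in the fit, the log2 fold change of Tmprss6 was 0.19 (SE 0.06, unadjusted p = 0.0371, adjusted p = 0.981 in limma). With the replicate block the adjusted p was 0.656. Without the block, that fit called 0 entries and gave even Id1 an adjusted p of 0.483 in limma, so it could not decide on Tmprss6. The log2(TPM + 1) scale also understates changes at such low levels. Of the 10 genes, Tmprss6 was the only one whose groups did not overlap. Such separation was common: 12.3% of those low entries were lower without overlap. Of the entries with a mean of at least 1 TPM, 17.4% were higher and 10.8% lower without overlap.

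The importers were moderately expressed. Tfrc (chr16:32427738-32451612), the transferrin receptor through which most cells take up iron, was at 6.38 and 7.18 TPM in controls and at 6.60 and 10.1 TPM after BMP6. BMP6 replicate 2 stood above the other 3 libraries, which lay close together. The log2 fold change was 0.24 (SE 0.21, 95% interval -0.27 to 0.75, adjusted p = 1.00 in limma), the largest of the 7 genes in size, with 0.04 in the replicate 1 pair and 0.44 in the replicate 2 pair. Without BMP6 replicate 2 it was -0.03, so the positive value rested on that library. With the replicate block the interval was -0.03 to 0.52 and the adjusted p 0.443.

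Part of the Tfrc difference lay in a short transcript. ENSMUST00000120680, which ends before the hairpins and holds no match, was at 0.0913 and 0.0439 TPM in controls, at 0.0108 TPM in BMP6 replicate 1 and at 1.04 TPM in BMP6 replicate 2, where it made up 10.2% of the gene. The full-length transcript with the 4 hairpins, ENSMUST00000023486, was at 6.29 and 7.14 TPM in controls and at 6.59 and 9.10 TPM after BMP6. BMP6 replicate 2 was thus the highest library for both transcripts.

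Slc11a2 (chr15:100285779-100320936), the divalent metal transporter DMT1 that moves iron across the apical membrane of gut cells and out of endosomes, was at 19.6 and 19.2 TPM in controls and at 18.8 and 20.5 TPM after BMP6. The BMP6 values enclosed the controls. The log2 fold change was 0.01 (SE 0.11, 95% interval -0.26 to 0.29, adjusted p = 1.00 in limma). Its mRNA comes in forms with and without a 3′ hairpin, and the form without it prevailed here: ENSMUST00000023774 was at 17.3 and 16.7 TPM in controls and at 16.5 and 18.2 TPM after BMP6. The form with the hairpin, ENSMUST00000138843, was at 2.35 and 2.49 TPM in controls and at 2.24 and 2.32 TPM after BMP6. It made up 12.0% and 12.9% of the gene in controls and 12.0% and 11.3% after BMP6. Both BMP6 values lay below both controls, in TPM and in share, although replicate 1 of each group rounded to the same share. By TPM per gene the same order was seen in 10.8% of tested entries, and the difference was not tested.

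Slc40a1 (chr1:45947228-45964742), the exporter ferroportin, reached the level of Hjv: 67.3 and 57.4 TPM in controls and 70.2 and 56.3 TPM after BMP6. As with Hfe, both replicate 1 libraries lay above both replicate 2 libraries. The log2 fold change was 0.02 (SE 0.14, 95% interval -0.33 to 0.36, adjusted p = 1.00 in limma), and with the replicate block the interval was -0.14 to 0.17. ENSMUST00000027137, which holds the 5′ hairpin shown above, was the only transcript quantified for this gene. All of its TPM was therefore assigned to that transcript, and a form without the hairpin could not have been seen. Ferroportin mRNA was thus present in cells in which Hamp was not detectable.

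Ferritin was among the most abundant products of these cells. Fth1 (chr19:9957962-9962462), the heavy chain that oxidises iron as it enters the ferritin shell, was at 2705 and 2648 TPM in controls and at 2665 and 2617 TPM after BMP6, ranks 30 to 32 among entries with an eligible name. Its log2 fold change of -0.02 had the smallest error of the 7 genes (SE 0.07, 95% interval -0.18 to 0.14, adjusted p = 1.00 in limma), a fold change between 0.881 and 1.11. ENSMUST00000025563 accounted for 98.3% to 98.6% of it.

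Ftl1 (chr7:45107368-45109308), the light chain that promotes mineral formation in the shell, was at 6845 and 8106 TPM in controls and at 7352 and 7900 TPM after BMP6, ranks 4 to 8. The BMP6 values lay inside the range of the controls. This was a log2 fold change of 0.03 (SE 0.10, 95% interval -0.21 to 0.28, adjusted p = 1.00 in limma). Light chain mRNA exceeded heavy chain mRNA 2.53 and 3.06 times in controls and 2.76 and 3.02 times after BMP6 by TPM, and together they took 0.955% to 1.08% of all TPM.

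The Ftl1 values are less certain than those of Fth1. Its main transcript, ENSMUST00000094434, aligned with 99.6% identity over 910 bases to Ftl1-ps1, with 98.7% over 552 bases to Ftl2-ps and with 99.1% over 552 bases to Gm15590. These 3 entries were at 1083 to 1190, 737 to 843 and 601 to 664 TPM, in sum 32.6% to 35.4% of the Ftl1 value, and how reads were split among them was not tested. For Fth1, no other entry in the files matched over at least 100 bases at 95% identity. The Ftl1 entry also holds Gm56125, a transcript of 195 bases inside the gene (chr7:45107513-45107707), at 537 and 692 TPM in controls and at 414 and 463 TPM after BMP6. Its groups did not overlap, with both BMP6 libraries lower, as in 10.8% of tested entries, and no test was made at the level of transcripts. The Ftl1 transcript itself was at 6308 and 7415 TPM in controls and at 6938 and 7377 TPM after BMP6, with overlapping groups.

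**Figure D2:**
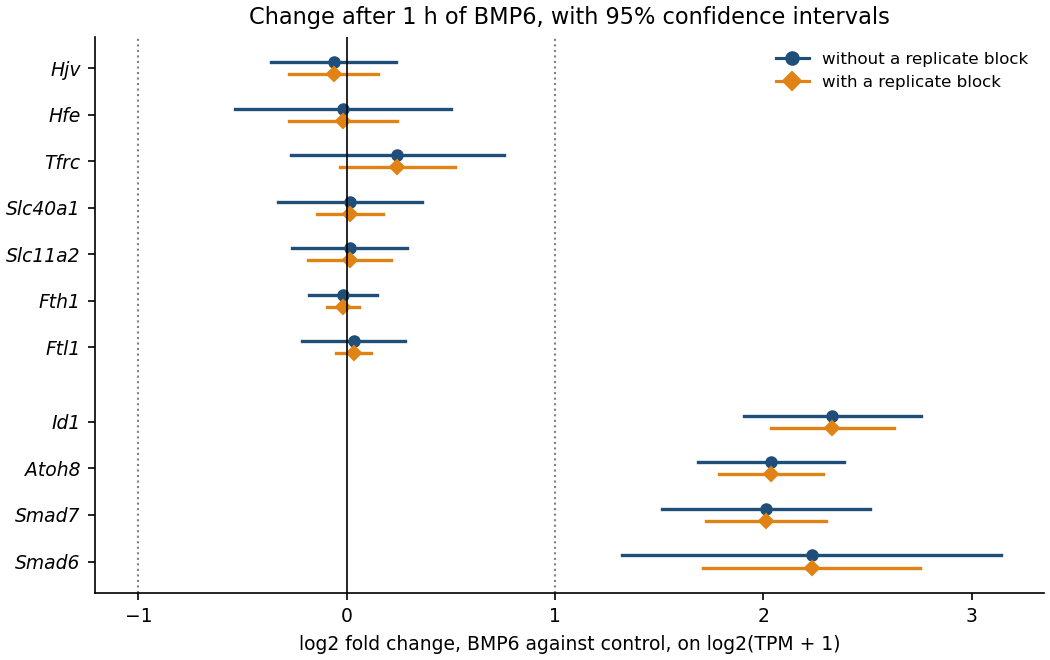
Log2 fold change of BMP6 against control on the log2(TPM + 1) scale (x axis) for the 7 tested iron regulation genes and 4 BMP target genes (y axis), with 95% confidence intervals from limma without (blue circles) and with (orange diamonds) a replicate block. Dotted lines mark fold changes of 0.5 and 2: the intervals of all 7 iron regulation genes include 0 and lie between those lines, while those of Id1, Atoh8, Smad7 and Smad6 lie beyond a fold change of 2.

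In the 7 tested genes the log2 fold changes ranged from -0.06 for Hjv to 0.24 for Tfrc, with a median of 0.01. The median over all tested entries that could be called was 0.02. Of the 7 values, 4 were above 0 and 3 below it. Every 95% interval excluded a fold change of 2 or 0.5, and the highest upper end, that of Tfrc, was a fold change of 1.69.

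The wider machinery of iron was described with 67 further genes in 8 lists, of which 53 were tested. The list of BMP signalling that controls hepcidin held 17 genes, of which 14 were tested, 3 rose and 0 fell (background 0.263% higher and 0.00939% lower by adjusted p alone). Beside Id1, these were Atoh8, a transcription factor that activates Hamp, and Smad7, an inhibitor of the receptors' signal. Atoh8 was at 9.68 and 12.4 TPM in controls and at 49.9 and 46.3 TPM after BMP6 (log2 fold change 2.04, SE 0.14, adjusted p = 0.0132 in limma). Smad7 was at 0.633 and 0.926 TPM in controls and at 5.12 and 7.36 TPM after BMP6 (2.01, SE 0.20, adjusted p = 0.0511 in limma). Smad6, a second inhibitory SMAD, was at 0.621 and 0.673 TPM in controls and at 4.13 and 10.6 TPM after BMP6. It passed only with the replicate block (2.23, adjusted p = 0.270 without and 0.00169 with the block in limma). The control means of Smad7 (0.780 TPM) and Smad6 (0.647 TPM) were under 1 TPM, so both were tested only because of their BMP6 libraries. The list holds BMP target genes and was chosen with earlier results known, so the 3 of 14 are not independent evidence of a response.

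The listed receptors and SMADs that feed Hamp were among the 14 of 17 genes with a mean of at least 1 TPM. The ligands Bmp6 (mean 0.846 TPM) and Bmp2 (mean 0.204 TPM) and the gene Hamp2 lay under that level. Bmp6 itself was at 1.04 and 0.868 TPM in controls and at 0.552 and 0.920 TPM after BMP6, and it overlaps 224 bases of Txndc5, which was at 154 to 193 TPM on the other strand. Bmp2 was at 0.0928 to 0.345 TPM. Erfe, the hormone erythroferrone that binds BMP6 and lowers hepcidin, was at 11.7 and 10.2 TPM in controls and at 13.4 and 10.7 TPM after BMP6, with a log2 fold change of 0.13 (SE 0.16). The lowest value of the list was that of Furin, a protease that cleaves hemojuvelin, at -0.09 (SE 0.23). Without the 4 target genes named above, none of the remaining 10 passed.

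Outside BMP signalling, 39 genes of the other lists were tested, and 0 passed the adjusted p in limma without the block. At an unadjusted p under 0.05 there were 3 of the 39, against 3.12% of all tested entries that could be called. Voom on rebuilt reads gave 2 at that level, against 3.08% of those entries, and 0 past the adjusted p. The 3 in limma were Slc39a14, Pcbp1 and Hmox1. With the replicate block, 3 of the 39 had an unadjusted p under 0.05 in limma, against 12.7% of those entries. In voom with the block there were 5, against 13.8%. Pcbp1 and Hmox1 passed the adjusted p with the replicate block, both lower after BMP6. By this measure in limma, 0.319% of all tested entries were lower and 1.32% higher.

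Pcbp1, an RNA-binding protein that also delivers iron to ferritin, was at 407 and 403 TPM in controls and at 306 and 327 TPM after BMP6. Both BMP6 libraries lay below both controls, as did those of 10.8% of tested entries. The log2 fold change was -0.35 (SE 0.08, adjusted p = 0.637 without and 0.0151 with the replicate block in limma). Hmox1, the heme oxygenase that releases iron from heme, was at 288 and 295 TPM in controls and at 251 and 217 TPM after BMP6, again without overlap. For Hmox1 the log2 difference was -0.32 (SE 0.10, adjusted p = 1.00 without and 0.0769 with the replicate block in limma). Both changes were smaller than the fold change of 2 that a call required.

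Slc39a14, a transporter of iron that is not bound to transferrin, had the highest value of the uptake list, at 2.60 and 3.39 TPM in controls and at 4.32 and 4.31 TPM after BMP6. Its log2 fold change of 0.42 (SE 0.16) had an adjusted p of 1.00 without and 0.222 with the replicate block in limma. Steap1, of a family that includes iron reductases, had the lowest of that list at -0.12 (SE 0.09). Cybrd1, Steap4 and Slc39a8 were below 1 TPM and Tf was not analysed here. All 3 genes of iron oxidation for export, Cp, Heph and Hephl1, had means below 1 TPM over all libraries. Cp lay just below that level, with a mean of 0.984 TPM. It was at 1.35 and 1.01 TPM in controls and at 1.06 and 0.519 TPM after BMP6, so it went untested because of BMP6 replicate 2.

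The sensors of iron were present and did not pass. Aco1, the iron regulatory protein that doubles as an aconitase, was at 28.7 and 32.6 TPM in controls and at 30.1 and 40.6 TPM after BMP6 (log2 fold change 0.19, SE 0.16), and Ireb2, the second iron regulatory protein, had the lowest value of the 3 sensors (0.05, SE 0.26). Among storage genes Pcbp2 was highest (0.14, SE 0.18), and Ftmt, mitochondrial ferritin, was listed at 0 everywhere. In the heme list of 14 genes, 13 of them tested, the highest value was that of Flvcr1, a heme exporter (0.14, SE 0.16). Of the 13 genes of mitochondrial iron, all tested, 0 passed, and the lowest value was -0.20 for Slc25a37, the importer mitoferrin-1 (SE 0.16). Of 5 other mRNAs with an IRE, 2 were tested and 0 passed, with the highest value for Cdc42bpa (0.11, SE 0.23).

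**Figure D3:**
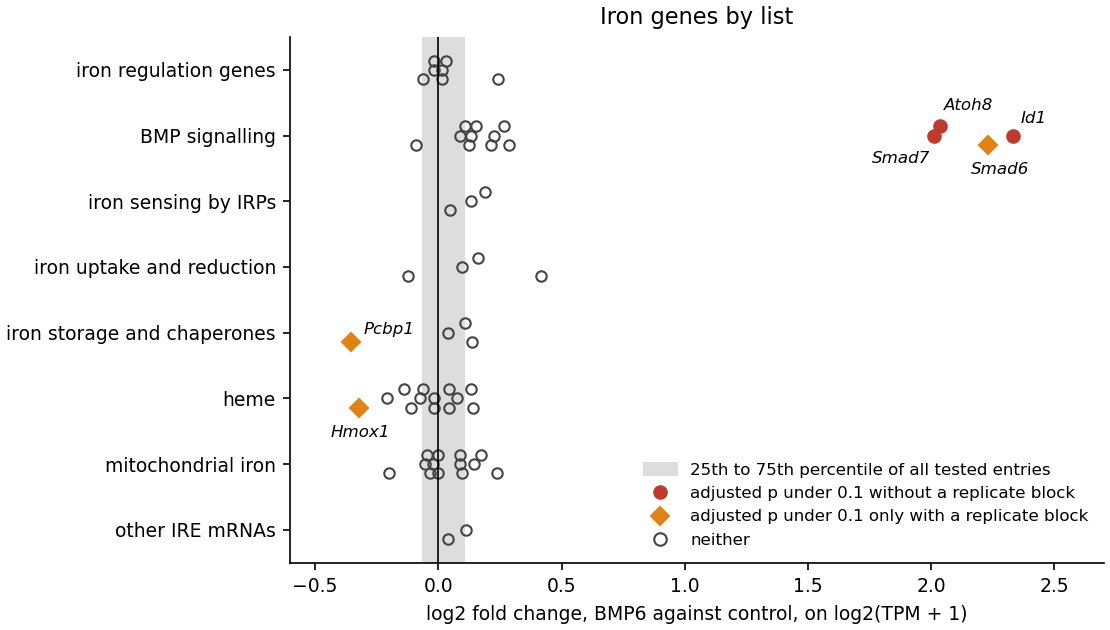
Log2 fold change of BMP6 against control on the log2(TPM + 1) scale (x axis) for each tested gene of the iron regulation genes and of the wider lists (y axis), with 1 point per gene. Filled red circles passed the adjusted p of 0.1 without a replicate block and orange diamonds only with it, and the grey band spans the 25th to 75th percentile of all tested entries, -0.06 to 0.11.

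With 2 libraries in each group, a permutation of the labels of a single gene could not give a p under 0.333, so the tests rest on the variance that limma shares across entries. Levels are of RNA after 1 h only.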

How the data were processed

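RNA-seq of 2 BMP6 and 2 control libraries was analysed, with groups taken from the treatment label. The authors made unstranded Smart-seq2 libraries without molecular identifiers, aligned read pairs with STAR 2.7.11a to GRCm39 (GENCODE M32), sorted them with SAMtools 1.17 and quantified merged assemblies with StringTie 2.2.1, whose command in the file headers switches off the correction for reads that align to several places. The authors deposited TPM per gene and, in a second table, FPKM per gene. The deposited signal per transcript is coverage, from which reads were rebuilt as coverage times length over a read length of 100 bases, so they are not counts of molecules. The files hold no counts. All columns matched a sample (0 did not).

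limma 3.58.1 in R 4.3.3 (lmFit, eBayes with a trend, two-sided) was fitted to log2(TPM + 1), which understates changes of low genes, after leaving out entries whose mean TPM was under 1, which left 13128. Benjamini-Hochberg adjustment covered all of them. Unnamed entries, bare Ensembl identifiers and the name patterns that the study set aside (Gm or Mir at the start, and Rik, os or -ps, the latter pair with an optional number, at the end) were fitted but not called. These were 2483 entries. The authors' own test used DESeq2. The fit was first tested on simulated data. The labels' batch pairs the libraries. Across genes, libraries with the same number deviated together from their groups' means (correlation 0.563), and the replicate block was run as the alternative. IRE matches used transcripts from the files, coding ranges of GENCODE M39 and the GRCm39 genome, promoters came from RefSeq on GRCm38.p6, and copies were found with BLAST+ 2.17.0.

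The members and gene lists were chosen with earlier results of these data known. The genes named are the 10 members, wider iron genes past the adjusted p with or without the block, the highest and lowest tested gene of each list (a few of these are not reported here), transcripts with at least 5% of a gene's TPM in any library, and copies of the ferritin genes. Bmp6, Bmp2, Erfe, Aco1, Slc39a14, genes named as under 1 TPM and the transcripts of Fth1, Hfe and Hjv below or beyond that rule were named in addition, after their values were seen. P-values set each difference against the spread between the 2 biological replicates of a group, combined with the variance that limma shares across entries. Rebuilt reads and floors cover counting error only.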

Additional observations from a re-analysis of the deposited data

How the results depend on the processing

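Under every alternative that was run, 0 of the 97 values of the 7 tested iron regulation genes passed the adjusted p, and the count of called iron regulation genes stayed at 0. Of these values 82 kept their direction and 15 did not, all in genes whose values were near 0 or rested on 1 library. Slc40a1 turned to -0.0008 under quantile normalization and to -0.0085 with FPKM in place of TPM. Slc11a2 turned to -0.0074 under quantile normalization, -0.0099 with FPKM, -0.0075 with voom on rebuilt reads and -0.0072 with voom and the replicate block. Leaving out each library in turn gave ranges of -0.203 to 0.0787 for Hjv, -0.246 to 0.210 for Hfe, -0.0326 to 0.519 for Tfrc, -0.139 to 0.172 for Slc40a1, -0.0469 to 0.0749 for Slc11a2 and -0.089 to 0.155 for Ftl1, and Fth1 stayed between -0.0346 and -0.0038. With 1 library left in a group, that library is assumed to vary like the others.

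Of all tested entries, 24 were called. The count was 15 with a pseudocount of 5, 15 at a mean TPM of at least 5, 12 without the eBayes trend, 11 at an adjusted p under 0.05, 0 without a filter on low values, 37 with the replicate block and 62 with voom and the replicate block. The filter-free fit tests 28856 entries. Wider iron genes past the adjusted p numbered 3, against 0 without a filter and 6 with the replicate block in limma or voom. The block added Smad6, Pcbp1 and Hmox1 and changed no other call among the iron genes. Smad6 also passed without BMP6 replicate 1 (adjusted p = 0.00398 in limma) and without BMP6 replicate 2 (0.0397). The fit with both a low filter removed and a replicate block, used for Tmprss6, was chosen after seeing the data. Depth limits Hamp, Tfr2 and Tmprss6, which rest on at most 102 rebuilt reads in a library.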
